A study of Homo sapiens with 32 samples.

Results

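The human HOX genes were followed across HEK293T cells that lack one of the IGF2BP RNA-binding proteins. The genes were taken by name, as every gene whose symbol is HOX, a cluster letter from A to D and a paralog number, and 39 of the 62703 identifiers in the deposited tables met that rule. They comprise 11 genes of HOXA on chromosome 7, 10 of HOXB on chromosome 17, 9 of HOXC on chromosome 12 and 9 of HOXD on chromosome 2. HEK293T is a human embryonic kidney cell line. The submitters transfected it transiently with non-integrating plasmids that carried GFP and 3 guide RNAs against IGF2BP1, IGF2BP2 or IGF2BP3, or with a guide that targets no mammalian gene, and sorted single GFP-positive cells. Each knockout genotype is 1 clone, no further treatment was given, and the effect of losing the gene and the properties of that clone cannot be told apart. Poly(A) RNA was sequenced from total, nuclear and cytoplasmic preparations, with 4 control libraries and 2 libraries of each knockout per preparation, and 2 more cytoplasmic libraries of the IGF2BP3 knockout (32 libraries). The labels do not say that libraries of a genotype came from separate cultures, so p-values measure the spread between libraries, which may be technical. In bulk RNA, fewer cells that express a gene and less of its RNA per cell cannot be told apart.

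HOX genes encode homeodomain transcription factors that set position along the head-to-tail axis and along the limbs of an embryo. Within a cluster the genes lie in the order of the body regions in which they act, and their paralog numbers run from anterior to posterior. Genes with the same number in different clusters are paralogs that descend from one ancestral gene. Their proteins bind DNA together with TALE cofactors such as PBX and MEIS, Polycomb and Trithorax complexes keep the clusters silent or active, and retinoic acid and CDX factors set the boundaries of expression. HOX10 and HOX11 genes take part in kidney development. IGF2BP proteins bind mRNAs and are known for effects on their stability, location and translation. The comparisons ask which HOX transcripts differ in level, and in nuclear against cytoplasmic abundance, when 1 of the IGF2BP genes is knocked out.

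Batch labels set the comparisons. The IGF2BP1 knockout was sequenced in batches 1 and 2, those of IGF2BP2 and IGF2BP3 in batches 3 and 4, and a control in each of these batches, so every knockout was compared with control libraries of its own batches. The 2 additional IGF2BP3 libraries form batch 5, which has no control. The library labelled total IGF2BP1 knockout replicate 2 and that labelled nuclear IGF2BP1 knockout replicate 1 hold the same counts at all 62703 identifiers (0 differ, 21232940 counts in each). At least 1 of these labels is therefore wrong or the same library was deposited under both, and results for the IGF2BP1 knockout are led by the cytoplasmic libraries, with total and nuclear values given also without the shared library. Libraries held 13689067 to 26119480 counts, of which the 39 HOX genes took 18214 to 43928 (0.124 to 0.168%). IGF2BP1 mRNA stood at 357.6 to 435.2 CPM (library-scaled counts) in cytoplasmic control libraries and at 22.1 and 22.4 CPM in the IGF2BP1 knockout. IGF2BP2 mRNA went from 84.3 to 89.4 CPM in control to 34.3 and 36.0 CPM in its knockout, and IGF2BP3 mRNA from 68.4 to 74.9 CPM to between 25.1 and 30.6 CPM in its knockout, batch 5 included. IGF2BP1 mRNA was also lower in the IGF2BP2 knockout (log2 change -0.63 ± 0.04 SE, edgeR adjusted p = 8.5e-17) and in the IGF2BP3 knockout (-0.65 ± 0.04, adjusted p = 3.6e-17), both in cytoplasmic RNA.

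Control cells had reads of nearly all HOX genes. Levels that compare genes are given as CPM divided by the length of the merged exons in kilobases (CPM per kb). In total RNA HOXB9 was highest, at 121 ± 8.39 CPM per kb (SD, n = 4 control libraries), followed by HOXA5 at 52.9 ± 0.556 and HOXD13 at 43.9 ± 1.64. Libraries of these 3 genes did not overlap with those of the next gene in order. HOXA6 (36.9), HOXB6 (33.8), HOXD10 (30.5), HOXA10 (28.6), HOXA9 (28.0), HOXC4 (25.2) and HOXB8 (23.1) came next, and in this stretch each gene's range overlapped that of its neighbour, so their order is not resolved. HOXA11 and HOXB5 stood at 19.6 and 15.3 CPM per kb. From HOXD9 (14.7) down to HOXA2 (1.67) the means fell in small steps, with most neighbours overlapping. A group of 4 genes lay below 1 CPM per kb: HOXC12 (0.484), HOXD1 (0.291), HOXC5 (0.290) and HOXD12 (0.229). HOXB1, the most anterior gene of its cluster, had 0 counts in 27 of 32 libraries and 1 count in the other 5, and did not enter any test.

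**Figure D1:**
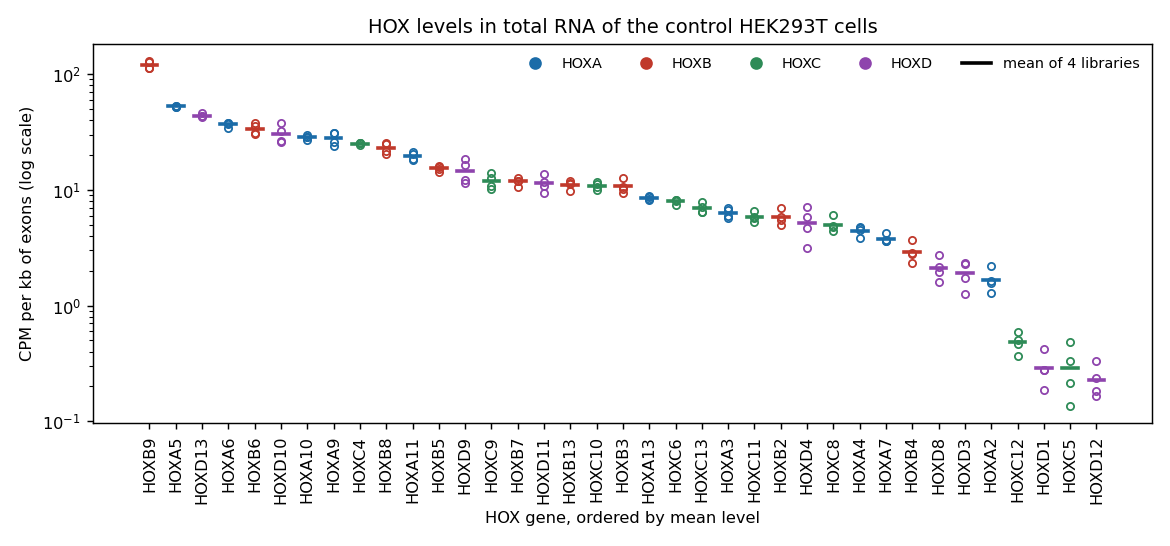
Levels of HOX genes in total RNA of control cells, in CPM per kb of exon on a log axis, ordered by mean level and coloured by cluster; circles are the 4 control libraries, bars their mean, and HOXB1 is not drawn. HOXB9 stands above all others at 121 CPM per kb, and HOXC12, HOXD1, HOXC5 and HOXD12 lie below 0.5.

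The most uniform change was in HOXB. HOXB9, HOXB6 and HOXB5, genes of the brachial and thoracic trunk, were lower in each knockout and in total, nuclear and cytoplasmic RNA alike (9 of 9 comparisons with control). No other HOX gene was lower in all 9, and HOXC10 was the only one higher in all 9. Over all genes tested in the 3 kinds of RNA (17587), 1.60% were lower and 1.64% higher in every one of the 9 comparisons. Since knockouts of the same batches share control libraries, and HOXB5 and HOXB6 are neighbours on the same strand, these counts are not independent. HOXB6 also shares 16.6% of its exonic bases with HOXB3.

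HOXB9 (chromosome 17, 48621159 to 48626356, minus strand, GRCh38) stood at 169, 167, 165 and 165 CPM per kb in the cytoplasmic control libraries of batches 1 to 4. It stood at 79.3 and 81.9 in the IGF2BP1 knockout, at 103 and 96.5 in the IGF2BP2 knockout, and at 93.7, 98.3, 95.8 and 95.7 in the IGF2BP3 knockout, the last 2 from batch 5. Every knockout library lay below every control library. The log2 changes were -1.06 ± 0.04 (adjusted p = 4.1e-21), -0.72 ± 0.04 (1.4e-17) and -0.78 ± 0.04 (1.8e-18), by edgeR's quasi-likelihood test with Benjamini-Hochberg adjustment, as for all adjusted p-values here. In total RNA the control libraries held 113, 114, 126 and 129 CPM per kb and the knockouts 54.4 to 77.6, with changes of -0.91, -0.77 and -0.89. In nuclear RNA the changes were -0.93, -0.63 and -0.83.

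HOXB6 (chromosome 17, 48595751 to 48604992) fell most in the IGF2BP2 knockout. Its cytoplasmic levels were 32.3, 34.6, 28.9 and 29.6 CPM per kb in control, 14.8 and 13.0 with IGF2BP1 knocked out, 8.48 and 8.71 with IGF2BP2 knocked out, and 17.7, 16.5, 22 and 22.6 with IGF2BP3 knocked out. No knockout library reached the lowest control library, and the groups were ordered with the IGF2BP2 knockout lowest. The changes were -1.27 ± 0.06, -1.77 ± 0.07 and -0.78 ± 0.06 (adjusted p = 3.5e-18, 5.6e-22 and 1.0e-13). In total RNA they were -0.63, -1.60 and -0.53.

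HOXB5 (chromosome 17, 48591257 to 48593961) showed the same order. Control libraries stood at 12.8, 13.8, 11.3 and 11.3 CPM per kb in the cytoplasm, the IGF2BP1 knockout at 4.88 and 5.45, the IGF2BP2 knockout at 4.00 and 3.77, and the IGF2BP3 knockout at 6.26, 5.85, 6.71 and 6.45. Again no libraries of control and knockout overlapped. The changes were -1.36 ± 0.09, -1.54 ± 0.09 and -0.90 ± 0.08 (adjusted p = 5.4e-15, 2.5e-16 and 1.8e-11). Calls for HOXB5, HOXB6 and HOXB9 held in all 9 comparisons under every alternative setting run.

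Other HOXB genes were more variable. HOXB8, next to HOXB9, fell by 0.71, 0.56 and 0.60 on the log2 scale in cytoplasmic RNA of the IGF2BP1, IGF2BP2 and IGF2BP3 knockouts, and its total RNA change in the IGF2BP1 knockout (-0.24) was not called (adjusted p = 0.091). HOXB2, an anterior hindbrain gene, fell by 0.74, 0.44 and 0.70. HOXB4 fell in the IGF2BP1 and IGF2BP3 knockouts (-0.54 and -0.29) and stood at 0.02 in the IGF2BP2 knockout (adjusted p = 0.91). HOXB7 fell in the first pair of knockouts (-0.37 and -0.33), and its value of 0.14 in the IGF2BP3 knockout was not called (adjusted p = 0.071). HOXB3 and HOXB13 went in opposite directions between knockouts in cytoplasmic RNA. HOXB3 changed there by -0.30 and -0.14 in the IGF2BP1 and IGF2BP2 knockouts and by 0.38 in the IGF2BP3 knockout. The call of the -0.14 (adjusted p = 0.049) was lost under 19 of 23 alternatives, while upper-quartile scaling turned the value to 0.013. HOXB3 was also called lower in total and in nuclear RNA of the IGF2BP2 knockout. Over the 9 comparisons with control it was called lower in 6 and higher in 1. Batch 5 libraries of the IGF2BP3 knockout held 6.38 and 6.86 CPM per kb of HOXB3 (control 6.02 to 6.56), a log2 ratio of means of 0.05. HOXB13, a posterior gene at the far end of the cluster, stood at 11.3, 12.8, 11.2 and 12.1 CPM per kb in cytoplasmic control, at 9.32 and 9.91 in the IGF2BP1 knockout, at 8.77 and 8.49 in the IGF2BP2 knockout, and at 17.2, 17.7, 16.2 and 16.7 in the IGF2BP3 knockout. Its groups did not overlap, and its changes were -0.32, -0.43 and 0.58 (adjusted p = 8.3e-05, 5.1e-07 and 1.8e-10).

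The cytoplasmic levels of the HOXB genes summed to 272.9 to 288.8 CPM per kb in control libraries, 149.0 and 149.7 with IGF2BP1 knocked out, 160.1 and 168.5 with IGF2BP2 knocked out, and 184.7 to 187.4 with IGF2BP3 knocked out. HOXB supplied 42.9% of the cytoplasmic HOX sum on this per-length scale in control (mean of 4 libraries) and 27.4, 32.6 and 35.5% in the 3 knockouts. HOXA took 30.1% in control and 37.5, 35.0 and 34.2% in the knockouts, although its sum in control varied between batches from 166.3 to 225.1 CPM per kb. In the IGF2BP1 knockout the HOXA sum (206.2 and 202.6) lay below the control of the same batches (225.1 and 222.7). In batches 3 and 4 control held 175.9 and 166.3, the IGF2BP2 knockout 177.7 and 174.9, and the IGF2BP3 knockout 176.6 and 175.0. The higher share of HOXA is therefore not by itself a higher level.

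**Figure D2:**
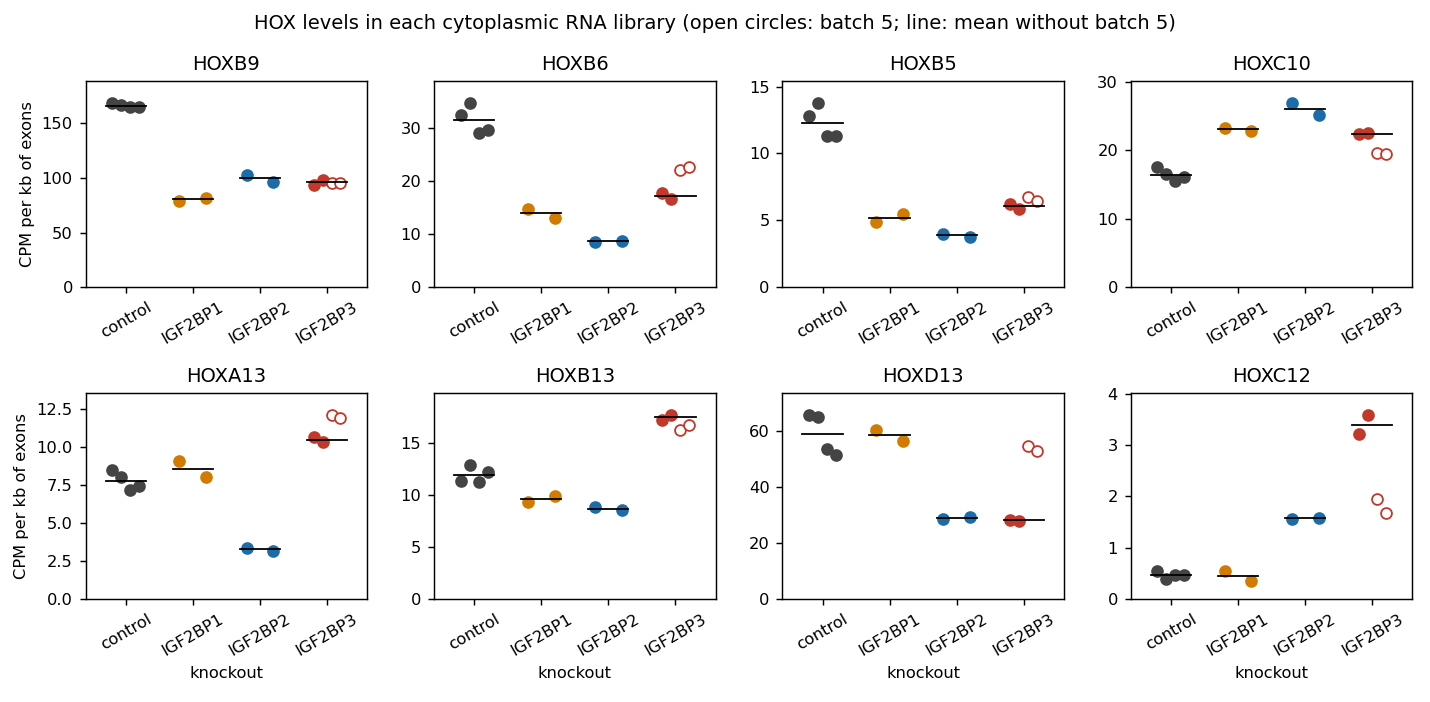
Cytoplasmic levels of 8 HOX genes in every library, in CPM per kb, by genotype; filled points are batches 1 to 4, open circles the batch 5 libraries of the IGF2BP3 knockout, and lines the mean without batch 5. HOXB9, HOXB6 and HOXB5 lie below control in each knockout, and HOXA13 and HOXB13 fall in the IGF2BP2 knockout and rise in the IGF2BP3 knockout.

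In the IGF2BP1 knockout most of the HOX genes called lower in cytoplasmic RNA were HOXB genes. Of 38 HOX genes tested in cytoplasmic RNA, 8 were higher and 13 lower than control at an adjusted p under 0.05, beside 22.5% higher and 21.9% lower of all 18212 genes tested. All 9 tested HOXB genes were lower, with a median log2 change of -0.71 beside 0.01 for all genes. HOXA had 2 higher and 2 lower of 11, HOXC 4 and 1 of 9, and HOXD 2 and 1 of 9. HOXA7 rose most of the HOXA genes: control libraries stood at 5.30, 5.77, 3.93 and 4.60 CPM per kb and the knockout at 8.97 and 9.22, above every control library (0.72 ± 0.09, adjusted p = 1.9e-08). HOXD3 rose by 0.86 (adjusted p = 9.2e-06), from 1.07, 1.23, 1.01 and 1.16 CPM per kb to 2.08 and 2.10. It shares 62.2% of its exonic bases with overlapping genes of the same strand, and HOXD4 shares 80.5%, so reads of these genes cannot be assigned with certainty. HOXA5 fell by 0.42 (adjusted p = 8.9e-09). Its control libraries of batches 1 and 2 (68.3 and 67.7 CPM per kb) lay above those of batches 3 and 4 (51.3 and 45.1), and the knockout libraries of 52.0 and 49.5 lay within the control range, so that call was lost without the batch term. HOXA3, HOXC6, HOXC8, HOXC13 and HOXD4 rose by 0.22 to 0.45, HOXA11, HOXC4 and HOXD13 fell by 0.14 to 0.27, and each of these small changes lost its call without control replicate 1 or control replicate 2.

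Total RNA of the IGF2BP1 knockout had 11 higher and 4 lower of 38 (all genes: 10.7% and 13.5%), and nuclear RNA 4 higher and 10 lower (12.7% and 13.0%). The 4 lower in total RNA were HOXB5, HOXB6, HOXB9 and HOXB13, and 7 of the 10 lower in nuclear RNA were HOXB genes. The 11 higher in total RNA were 3 HOXA, 4 HOXC and 4 HOXD genes. Without the shared library the counts were 9 higher and 5 lower in total RNA, and 3 higher and 13 lower in nuclear RNA. HOXD3 and HOXD9 had total RNA changes of 1.22 and 0.83 with that library and 0.75 and 0.52 without it. HOXD9 stood at 17.4 and 25.5 CPM per kb in the total libraries and at 25.6 and 15.5 in the nuclear libraries, where control held 11.4 to 18.7 in total and 22.8 to 28.8 in nuclear RNA. The nuclear call of HOXD3 was lost without the shared library (0.01, adjusted p = 0.98), and so were the total RNA calls of HOXD4, HOXA2 and HOXC8. Only the batches of the knockout gave 6 higher and 3 lower in total RNA, and the nuclear calls numbered 8 without nuclear control replicate 2 and 8 without nuclear IGF2BP1 knockout replicate 2.

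In the IGF2BP2 knockout HOXA13 and HOXD13, each the most posterior gene of its cluster, were lower, as were anterior genes such as HOXB2. In cytoplasmic RNA 15 HOX genes were higher and 14 lower of 38 (all genes: 30.9% and 33.2%). HOXB had 0 higher and 8 lower of 9 (median -0.44), HOXA 6 and 4, HOXC 5 and 1, and HOXD 4 and 1. Total RNA had 4 higher and 16 lower (23.3% and 23.7%), and nuclear RNA 5 and 18 (24.8% and 24.9%). The total RNA count of 20 fell to 10 without control replicate 3 or without IGF2BP2 knockout replicate 1, and to 13 without control replicate 4 or by DESeq2.

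HOXA13 (chromosome 7, 27193503 to 27200106, minus strand), the most posterior gene of HOXA and a factor of the distal limb and urogenital tract, was lower in this knockout and higher in the IGF2BP3 knockout. Cytoplasmic control libraries stood at 8.51, 8.05, 7.17 and 7.47 CPM per kb, the IGF2BP1 knockout at 9.07 and 8.06, the IGF2BP2 knockout at 3.39 and 3.18, and the IGF2BP3 knockout at 10.7, 10.4, 12.1 and 11.9. The IGF2BP2 and IGF2BP3 groups overlapped with no other group, and the IGF2BP1 knockout was near control (0.05, adjusted p = 0.56). The changes were -1.16 ± 0.07 and 0.52 ± 0.06 (adjusted p = 7.0e-16 and 3.2e-09). They were -1.24 and 0.70 in total RNA and -1.07 and 0.65 in nuclear RNA. HOXA11, its neighbour, fell in the IGF2BP2 knockout by 0.71 in cytoplasmic, 0.78 in total and 0.52 in nuclear RNA. HOXA11-AS, transcribed from the opposite strand of HOXA11, fell by 1.05, 1.67 and 1.75. How strand was used in counting is not given in the sources used here, so reads of the pair may be mixed.

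HOXD13 (chromosome 2, 176092891 to 176095938, plus strand), the paralog of HOXA13 in HOXD, fell in both the IGF2BP2 and the IGF2BP3 knockout in batches 3 and 4. Cytoplasmic control libraries stood at 65.9, 65.1, 53.7 and 51.5 CPM per kb, the IGF2BP1 knockout at 60.5 and 56.5, the IGF2BP2 knockout at 28.4 and 29.1, and the IGF2BP3 knockout at 28.3 and 27.8 in batches 3 and 4 and at 54.6 and 52.9 in batch 5. The changes, which rest on batches 3 and 4, were -0.87 ± 0.05 and -0.91 ± 0.05 (adjusted p = 1.8e-17 and 5.3e-18). The batch 5 libraries of the IGF2BP3 knockout lay within the control range, so the lower HOXD13 level was not seen in all libraries of that genotype. The same batch 5 libraries kept the low HOXB9 level and the high HOXA13 level. Total RNA gave -0.75 and -0.89, and nuclear RNA -0.62 and -0.89.

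The sequence before the start site is shown for these paralogs because they differ in response, and for HOXD11 because its promoter carries a joint PBX and HOX motif. Each is the 250 bases upstream of the RefSeq start (GRCh38.p14), read 5′ to 3′ on the gene's strand, with capitals for motif matches on either strand. The letters searched were TGATNNAT for PBX with HOX. For the CDX factors they were TTTATG. For the TATA box they were TATAAA. HOXA13 lies at chr7:27200092-27200341 (minus strand), HOXD13 at chr2:176092471-176092720 (plus) and HOXD11 at chr2:176107030-176107279 (plus).
HOXA13: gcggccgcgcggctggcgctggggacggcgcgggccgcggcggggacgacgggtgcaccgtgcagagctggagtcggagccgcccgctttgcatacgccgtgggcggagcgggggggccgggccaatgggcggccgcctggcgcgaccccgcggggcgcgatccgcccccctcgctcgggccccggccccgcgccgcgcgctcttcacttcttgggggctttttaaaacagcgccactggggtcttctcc
HOXD13: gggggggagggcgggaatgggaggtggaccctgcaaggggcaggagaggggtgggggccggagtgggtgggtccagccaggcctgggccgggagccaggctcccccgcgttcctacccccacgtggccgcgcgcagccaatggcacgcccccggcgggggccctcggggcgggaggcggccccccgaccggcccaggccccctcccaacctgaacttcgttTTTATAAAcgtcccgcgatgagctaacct
HOXD11: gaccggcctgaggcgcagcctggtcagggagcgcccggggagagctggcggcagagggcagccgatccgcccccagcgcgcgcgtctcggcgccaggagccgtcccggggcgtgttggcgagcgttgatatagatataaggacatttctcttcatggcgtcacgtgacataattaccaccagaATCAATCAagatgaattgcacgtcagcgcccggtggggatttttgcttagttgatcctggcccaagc
The HOXA13 stretch held none of these letters, 40 CpG dinucleotides and 78% G and C. That of HOXD13 held TATAAA on both strands in overlapping bases, 27 and 29 bases before the start, 21 CpG dinucleotides and 74% G and C. HOXD11 held the PBX and HOX letters on the reverse strand 67 bases before the start. RefSeq starts were matched for 20 HOX genes (27 starts). HOXA3 had several of these starts, and HOXC4 and HOXC5 shared the same bases, so the starts are not independent. HOXB1 was the only HOXB gene matched. TGATNNAT was in 3 of the 27 starts (11.1%) and in 6.47% of 35116 starts of all genes, TTTATG in 3 (11.1%) and 9.64%, and TATAAA in 5 (18.5%) and 10.7%. The DR5 repeat of retinoic acid receptors was in 1 of all starts and in 0 of the 27. The median number of CpG dinucleotides was 19 for HOX starts and 11 for all.

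Other HOX genes changed in the IGF2BP2 knockout too. HOXA10, a gene of the posterior trunk and kidney, fell by 0.28 in cytoplasmic RNA. HOXA4, HOXD3, HOXA7, HOXD8, HOXD4 and HOXC8 rose by 0.50 to 0.87 in cytoplasmic RNA. HOXA7, HOXC10, HOXC12 and HOXD8 were higher and 11 genes lower in all 3 kinds of RNA, beside 15.8% and 16.2% of all genes. HOXA6, HOXC6, HOXD10, HOXC11, HOXA3, HOXA5 and HOXA9 rose by 0.19 to 0.32 in cytoplasmic RNA, and HOXC9 fell by 0.19. These rises did not extend to HOXA in total RNA, where 1 of its genes was higher and 6 lower of 11 (median -0.26). HOXA6 and HOXA9 had control levels that differed between batches, and without the batch term HOXA6 turned to -0.14.

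HOXC10 and HOXC12 rose in the IGF2BP2 and in the IGF2BP3 knockout. HOXC10 (chromosome 12, 53985065 to 53990279), a posterior gene of hindlimb and lumbar levels, stood at 17.5, 16.5, 15.5 and 16.1 CPM per kb in cytoplasmic control. It stood at 23.3 and 22.8 in the IGF2BP1 knockout, at 26.9 and 25.2 in the IGF2BP2 knockout, and at 22.4, 22.5, 19.6 and 19.4 in the IGF2BP3 knockout, above control in every library. The changes were 0.44, 0.72 and 0.50 with SE of 0.06 each (adjusted p = 1.5e-07, 8.9e-13 and 4.4e-09). In total RNA they were 0.47, 0.42 and 0.30, and the last (adjusted p = 0.046) was lost under 12 of 20 alternatives. HOXC12 (chromosome 12, 53954834 to 53958956), near the posterior end of HOXC, had 24 to 35 counts in cytoplasmic control libraries. Its levels were 0.547, 0.386, 0.467 and 0.459 CPM per kb in control, 0.547 and 0.351 with IGF2BP1 knocked out, 1.56 and 1.57 with IGF2BP2 knocked out, and 3.20, 3.59, 1.94 and 1.67 with IGF2BP3 knocked out. The IGF2BP1 knockout overlapped with control (-0.06, adjusted p = 0.89), and both others lay above it. The changes were 1.76 ± 0.20 and 2.87 ± 0.17 (adjusted p = 2.0e-09 and 2.4e-16), the latter 7.33-fold. The batch 5 libraries were the lower pair of the IGF2BP3 group and lay above both IGF2BP2 libraries.

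The IGF2BP3 knockout had 13 higher and 12 lower of 38 in cytoplasmic RNA (all genes: 31.5% and 33.2%), 6 and 15 in total RNA (23.5% and 23.4%), and 7 and 17 in nuclear RNA (25.1% and 25.3%). With upper-quartile scaling, which moved the median of all genes by 0.17 in cytoplasmic RNA, the splits were 20 and 8, 8 and 10, and 11 and 15. The total RNA count of 21 fell to 10 without IGF2BP3 knockout replicate 1, to 11 without IGF2BP3 knockout replicate 2 or control replicate 3, and to 13 without control replicate 4. HOXC had 6 higher and 1 lower of 9 in cytoplasmic RNA (median 0.42 beside 0.02 for all genes), HOXB 2 and 6 (-0.60), HOXD 2 and 4 (-0.04), and HOXA 3 and 1 (0.06). Genes lower in all 3 kinds of RNA numbered 11 and those higher 5, beside 18.0% and 17.1% of all genes.

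HOXD10 and HOXD9, which act in hindlimb and lumbar patterning, fell in the IGF2BP3 knockout. Cytoplasmic HOXD10 stood at 15.1, 14.3, 15.2 and 15.0 CPM per kb in control and at 10.9, 11.7, 12.9 and 12.6 in the knockout, below every control library (-0.42 ± 0.06, adjusted p = 6.4e-07). It stood at 18.4 and 18.9 in the IGF2BP2 knockout, above control (0.30, adjusted p = 4.8e-05). In nuclear RNA HOXD10 fell in both, by 0.56 and 1.17. HOXD9 fell by 0.59 in cytoplasmic, 0.79 in total and 1.19 in nuclear RNA of the IGF2BP3 knockout. HOXD11 fell by 0.64 in nuclear RNA, and the call of its cytoplasmic change of -0.24 was lost under 12 of 23 alternatives. HOXC4 fell by 0.23 in cytoplasmic, 0.41 in total and 0.46 in nuclear RNA. HOXC6 and HOXC11 rose by 0.52 and 0.46 in cytoplasmic RNA, HOXA4 by 0.70 and HOXD8 by 0.37. Both batch 5 libraries lay within the control range for HOXC11 (6.85 and 7.26 CPM per kb, control 6.19 to 7.30), HOXA4 (2.69 and 2.99, control 1.92 to 3.02) and HOXD11 (7.06 and 8.92, control 6.49 to 8.97). HOXC13, HOXA7, HOXC8 and HOXD12 rose by 0.29, 0.25, 0.35 and 1.32, and each of these calls was lost without IGF2BP3 knockout replicate 2. HOXA9 fell in all 3 kinds (-0.13, -0.41 and -0.51 in cytoplasmic, total and nuclear RNA), and the cytoplasmic value turned to 0.044 with upper-quartile scaling. HOXA2, a hindbrain gene, fell in total RNA when IGF2BP2 or IGF2BP3 was knocked out (-0.66 and -0.56) and was not called in cytoplasmic RNA.

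Over the 9 comparisons with control, 9 genes were called only higher, 12 only lower and 15 in both directions, beside 32.3%, 29.3% and 32.2% of all genes tested. HOXC5 and HOXD1, both below 0.5 CPM per kb in control, were called in none, with cytoplasmic SE of 0.52 to 0.54 and 0.36 to 0.38. Cytoplasmic changes of 0.80, for HOXC5 in the IGF2BP2 knockout (adjusted p = 0.18) and for HOXD1 in the IGF2BP3 knockout (adjusted p = 0.053), were not detectable at this depth. HOXA10 and HOXA11 were among those only lower, HOXA3, HOXA7, HOXC11 and HOXC13 among those only higher. Both directions occurred in each range of paralog numbers, but not within every comparison. In cytoplasmic RNA of the IGF2BP2 knockout, groups 1 to 3 had 2 higher and 3 lower, groups 4 to 8 had 8 and 4, and groups 9 to 13 had 5 and 7. In nuclear RNA of the IGF2BP3 knockout these ranges had 0 and 4, 0 and 7, and 7 and 6 (all genes: 25.1% and 25.3%). Groups 1 to 3 had 0 and 4 of 7 in total and in nuclear RNA of the IGF2BP2 knockout (all genes: 23.3% and 23.7%, and 24.8% and 24.9%). They had 2 and 0 in total RNA of the IGF2BP1 knockout (10.7% and 13.5%).

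**Figure D3:**
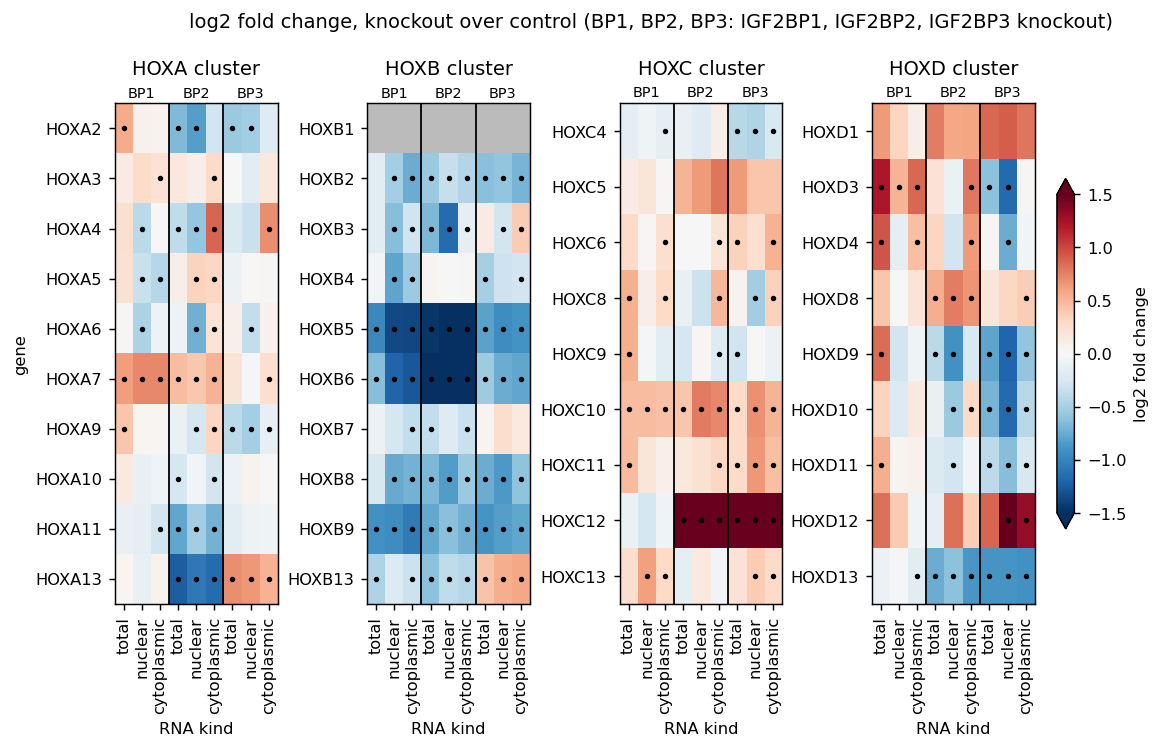
Log2 change of tested HOX genes against control in the 9 comparisons (3 knockouts in total, nuclear and cytoplasmic RNA), by cluster and paralog number; colour gives the change, saturating at 1.5 in either direction, a dot marks an adjusted p under 0.05 and grey a gene not tested. HOXB5, HOXB6 and HOXB9 are lower in all 9, and HOXA13 and HOXC12 separate the knockouts.

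The knockouts of IGF2BP2 and IGF2BP3 share batches and could be compared with each other directly. In cytoplasmic RNA 13 HOX genes were higher and 12 lower in the IGF2BP3 than in the IGF2BP2 knockout (all genes: 31.3% and 31.5%). The counts were 11 and 6 in total RNA (21.8% and 21.5%) and 13 and 10 in nuclear RNA (24.1% and 24.1%). HOXA13 differed most in each kind, by 1.68 ± 0.06 in cytoplasmic (adjusted p = 2.3e-21), 1.94 in total and 1.72 in nuclear RNA. HOXC12 (1.11), HOXB13 (1.01), HOXB6 (0.99), HOXA11 (0.65) and HOXB5 (0.64) were also higher in the cytoplasm of the IGF2BP3 knockout. HOXD3 (-0.77), HOXD10 (-0.72) and HOXD4 (-0.67) were lower there, and HOXD had 5 lower and 1 higher of 9. The total RNA count of 17 fell to 8 without IGF2BP2 knockout replicate 2 and to 9 without IGF2BP2 knockout replicate 1 or either IGF2BP3 knockout library. The nuclear count of 23 fell to 12 without IGF2BP3 knockout replicate 1 and to 15 without IGF2BP3 knockout replicate 2 or IGF2BP2 knockout replicate 1.

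The IGF2BP1 knockout shares no batch with the others, so its effect was set against theirs as a difference of changes from control in cytoplasmic RNA. The change of 17 HOX genes differed between the IGF2BP2 and the IGF2BP1 knockout, 10 being higher and 7 lower (48.4% of all genes). That of 18 differed between the IGF2BP3 and the IGF2BP1 knockout, 13 higher and 5 lower (51.3% of all genes). With upper-quartile scaling the splits were 15 and 4, and 18 and 3. HOXA13 (-1.21 ± 0.09), HOXD13 (-0.71 ± 0.06) and HOXB6 (-0.50 ± 0.09) were further down in the IGF2BP2 knockout, and HOXC12 (1.82), HOXA4 (0.87) and HOXA5 (0.74) further up. HOXB9 was less reduced in the IGF2BP2 and IGF2BP3 knockouts than in the IGF2BP1 knockout, by 0.33 ± 0.06 and 0.28 ± 0.05 (adjusted p = 4.7e-06 and 6.2e-05). For HOXB as a whole, 6 of 9 were higher and 0 lower in the IGF2BP3 change than in the IGF2BP1 change. All these differences use the control of batches 1 and 2 on one side and of batches 3 and 4 on the other.

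HOX transcripts divided between nucleus and cytoplasm in the control. Of 36 HOX genes tested, 15 had a higher share of counts in nuclear and 14 in cytoplasmic libraries (all genes: 32.6% and 33.3%). Each library is scaled to its own total, so the ratio ranks genes and gives no absolute amount. HOXD9 (log2 nuclear over cytoplasmic 2.15 ± 0.09) and HOXD4 (2.10 ± 0.12) were most nuclear, followed by HOXD10 (1.34), HOXA4 (1.26), HOXD3 (1.13), HOXA6 (1.08) and HOXB3 (1.06). HOXC10 (-1.02 ± 0.07), HOXD13 (-0.83 ± 0.06) and HOXB9 (-0.72 ± 0.06) were most cytoplasmic. Within HOXD, the ratio therefore ran from 2.15 for HOXD9 to -0.83 for HOXD13. Control HOXD9 stood at 22.8, 26.2, 28.8 and 24.0 CPM per kb in nuclear and at 4.41, 6.94, 5.17 and 5.11 in cytoplasmic libraries.

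The ratio of 10 HOX genes was lower in the IGF2BP2 knockout and of 10 in the IGF2BP3 knockout, with 0 higher in either. Over all genes the ratio was higher for 7.77% and lower for 9.71% with IGF2BP2 knocked out, and for 4.07% and 6.8% with IGF2BP3 knocked out. In the IGF2BP1 knockout, which includes the shared library on its nuclear side, edgeR called 0 HOX genes (all genes: 4.11%) and 5 had an unadjusted p under 0.05. DESeq2 called 0. Leaving out 1 library gave 2 calls (control replicate 1 of either fraction) or 3 calls (nuclear or cytoplasmic IGF2BP1 knockout replicate 1, and each nuclear or cytoplasmic IGF2BP2 knockout library). HOXA4 shifted most in the IGF2BP2 knockout (-1.48 ± 0.23, adjusted p = 1.9e-07), with nuclear levels of 5.64, 6.88, 6.14 and 6.56 CPM per kb in control and 4.50 and 4.05 in the knockout, and cytoplasmic levels of 3.02, 2.92, 1.97 and 1.92 in control and 4.00 and 3.17 in the knockout. HOXB3 (-1.05 ± 0.12) and HOXA6 (-0.97 ± 0.14) followed. In the IGF2BP3 knockout HOXD3 shifted most (-1.24 ± 0.25, adjusted p = 7.4e-05), then HOXA4 (-1.09 ± 0.23). The others called ranged from -0.96 for HOXD4 to -0.32 for HOXC4 in the IGF2BP2 knockout and from -0.94 for HOXC8 to -0.44 for HOXA9 in the IGF2BP3 knockout. Both comparisons use the same control libraries. The IGF2BP2 count fell to 4 without cytoplasmic control replicate 3 and to 5 without nuclear control replicate 3. The IGF2BP3 count fell to 1 without nuclear or without cytoplasmic IGF2BP3 knockout replicate 1, to 2 without nuclear or without cytoplasmic control replicate 3, and to 6 without either fraction of replicate 2.

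Nuclear-enriched genes in general moved the same way. Of 3650 genes with a control ratio of 0.5 or more on the log2 scale, 40% had a lower ratio in the IGF2BP2 knockout (median -0.62), 25% in the IGF2BP3 knockout (median -0.45) and 7.18% in the IGF2BP1 knockout (median -0.23). Of the 10 HOX genes of that kind, 8, 9 and 0 did, with medians of -0.92, -0.74 and -0.33. Genes at the other end moved the opposite way: of 2422 with a control ratio of -0.5 or less, 20.7% had a higher ratio in the IGF2BP2 knockout (median 0.27). With IGF2BP3 and IGF2BP1 knocked out 4.05% and 5.12% did (medians 0.08 and 0.17), and at most 0.372% were lower in any knockout. Of the 8 HOX genes at that end, 0 were called in either direction in any knockout. This is a description, because the control libraries that set the ratio also enter the change. MALAT1, a long RNA retained in the nucleus, stood at 20.8 to 25.4 CPM in cytoplasmic control libraries, at 29.9 and 34.5 CPM in the IGF2BP1 knockout, at 75.1 and 80.4 CPM in the IGF2BP2 knockout and at 63.5 to 112.9 CPM in the IGF2BP3 knockout. Its total RNA level was also higher than in control (84.0 to 99.0 CPM), at 169.2 and 166.2 CPM in the IGF2BP2 knockout (0.87, adjusted p = 0.00018) and at 264.3 and 359.1 CPM in the IGF2BP3 knockout (1.76, adjusted p = 7.3e-07). The part of these shifts in the HOX ratios was not tested.

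**Figure D4:**
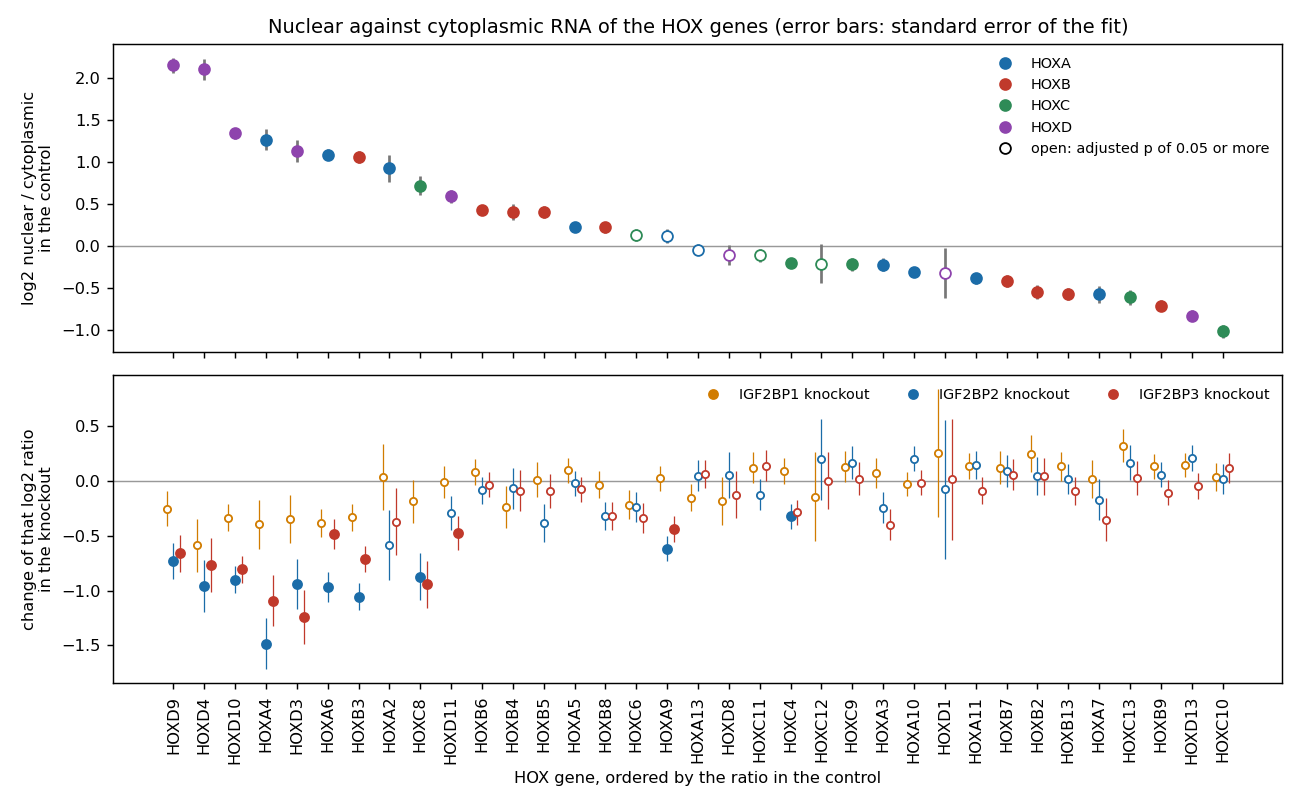
Log2 ratio of nuclear over cytoplasmic levels of HOX genes in control cells, and its change in each knockout; error bars are standard errors and filled points an adjusted p under 0.05. Genes with high control ratios such as HOXD9 and HOXA4 have lower ratios in the IGF2BP2 and IGF2BP3 knockouts.

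HOXB lies on the same chromosome as IGF2BP1. The cluster spans 48528526 to 48729178 on chromosome 17 (GRCh38), and its HOXB13 end is 268 kb from the start of IGF2BP1. Between them 8 genes were tested in cytoplasmic RNA. In the IGF2BP1 knockout 6 of these were lower and 0 higher, with a median of -0.59, beside 21.9% lower and 22.5% higher of all genes. CALCOCO2 (-0.61, adjusted p = 3.3e-12), ATP5MC1 (-0.56), SNF8 (-0.31) and UBE2Z (-0.27) were among them. In the IGF2BP2 knockout 2 were higher and 4 lower, and in the IGF2BP3 knockout 6 were higher and 1 lower (all genes: 30.9% and 33.2%, and 31.5% and 33.2%). The 4 lower with IGF2BP2 knocked out were CALCOCO2 (-0.24), ATP5MC1 (-1.16), SNF8 (-0.52) and UBE2Z (-0.21), so their fall was shared by these 2 knockouts. With IGF2BP3 knocked out only ATP5MC1 was lower (-0.29). TTLL6, the nearest tested protein-coding gene on this side of HOXB, rose by 3.98 in the IGF2BP3 knockout (adjusted p = 1.4e-09). In total RNA of the IGF2BP1 knockout 2 of the genes in the interval were lower and 0 higher (all genes: 13.5% and 10.7%). Among other non-HOX genes inside HOXB, 4 of 7 tested were lower and 0 higher in cytoplasmic RNA of the IGF2BP1 knockout. LINC03057 in HOXB, named after its values were seen, went from 4.35 to 6.74 CPM in control to 0.394 and 0.479 CPM in the IGF2BP1 knockout (-3.88 ± 0.25, adjusted p = 7.2e-15). It changed by -0.78 and -0.39 in the other knockouts. An effect of editing at the IGF2BP1 locus on its chromosome and an effect of the missing protein cannot be told apart with 1 clone.

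**Figure D5:**
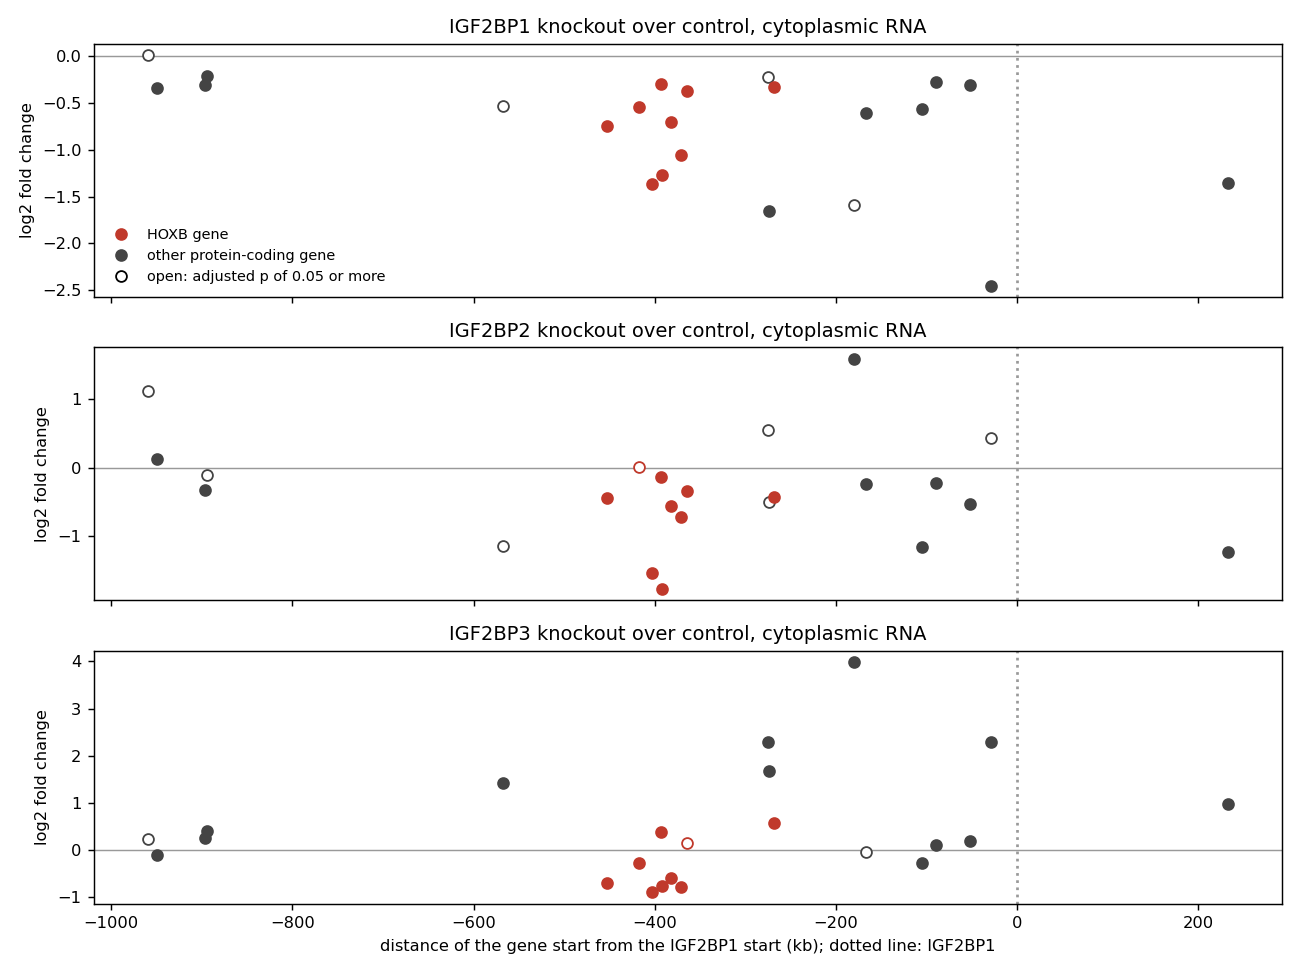
Log2 change in cytoplasmic RNA of protein-coding genes around HOXB, by distance in kb from the start of IGF2BP1, for each knockout; HOXB genes are red, others grey, open points have an adjusted p of 0.05 or more, and IGF2BP1 is a dotted line. In the IGF2BP1 knockout the 9 HOXB genes tested lie below 0, as do CALCOCO2, ATP5MC1, SNF8 and UBE2Z. CALCOCO2, ATP5MC1, SNF8 and UBE2Z lie below 0 in the IGF2BP2 knockout as well.

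The neighbours of the other clusters changed in both directions. In cytoplasmic RNA of the IGF2BP1 knockout, genes within 500 kb right of HOXC had 1 higher and 5 lower of 12 (median -0.30). Those left of HOXC had 2 and 1 of 9, and those left of HOXB 0 and 3 of 7 (median -0.31). Beside HOXA and HOXD, where few genes were tested, 0 were lower. Of all genes 22.5% were higher and 21.9% lower. SKAP2, left of HOXA, rose by 0.64 in cytoplasmic RNA of the IGF2BP1 knockout, and HIBADH on its right fell by 0.97 and 0.69 in the IGF2BP2 and IGF2BP3 knockouts. HOXA and IGF2BP3 are both on chromosome 7, 3623 kb apart. In the IGF2BP3 knockout CALCOCO1 and SMUG1 on the sides of HOXC rose by 1.08 and 0.74, and LNPK and MTX2 on the sides of HOXD fell by 0.70 and 0.68.

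The noncoding RNAs of the clusters moved apart from their coding neighbours in places. Of 15 tested in cytoplasmic RNA, 2 were higher and 3 lower with IGF2BP1 knocked out, 7 and 2 with IGF2BP2 knocked out, and 10 and 1 with IGF2BP3 knocked out (median 0.68 beside 0.02 for all genes). Of all genes 22.5% were higher and 21.9% lower with IGF2BP1 knocked out, 30.9% and 33.2% with IGF2BP2 knocked out, and 31.5% and 33.2% with IGF2BP3 knocked out. HOTTIP, next to HOXA13 and known for activating the posterior HOXA genes, rose by 1.77 in the IGF2BP3 knockout, in which HOXA13 rose too, and stood at -0.28 in the IGF2BP2 knockout (adjusted p = 0.55). HOXA11-AS rose by 0.69 in the IGF2BP3 knockout. HOTAIR, transcribed from HOXC and known for an association with Polycomb, rose by 0.79 in the IGF2BP3 knockout and by 0.28 in the IGF2BP1 knockout. HOXB-AS1 rose by 1.82 and 2.10 in the IGF2BP2 and IGF2BP3 knockouts, while HOXB5 and HOXB6 fell. HAGLR in HOXD rose by 0.35 and 0.83.

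The partners and regulators of HOX genes changed in both directions. Of 9 TALE cofactors, in the cytoplasm 3 were higher and 1 lower when IGF2BP1 was knocked out, 3 and 4 for IGF2BP2, and 4 and 3 for IGF2BP3 (all genes: 22.5% and 21.9%, 30.9% and 33.2%, and 31.5% and 33.2%). MEIS3 rose by 1.04 in the IGF2BP3 knockout. PKNOX1 fell in all 3 knockouts (-0.23, -0.60 and -0.23). Of 26 Polycomb genes, which repress HOX clusters, 9 were higher and 11 lower, 7 and 14, and 9 and 10. SUZ12, a core subunit of the complex that methylates histone H3, fell by 0.47 in the IGF2BP1 knockout, and EED, its partner, by 0.63 in the IGF2BP2 knockout. CBX7 and PHF1 rose by 1.00 and 1.19 in the IGF2BP3 knockout, where BMI1 fell by 0.46. Of 19 Trithorax and other activating genes, 9 were higher and 1 lower, 4 and 10, and 3 and 14 (median -0.29 in the IGF2BP3 knockout). The Polycomb and Trithorax counts stand beside the same shares of all genes as the cofactors. KDM6B, which removes the Polycomb mark, fell by 0.40 in the IGF2BP1 knockout and rose in the others, by 1.27 when IGF2BP2 was knocked out and, in total RNA, by 1.15 when IGF2BP3 was. MEN1 fell by 0.84 in the IGF2BP2 knockout.

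Of 18 tested genes of retinoic acid and CDX signalling, in the cytoplasm 4 were higher and 10 lower when IGF2BP1 was knocked out (median -0.37), 7 and 5 for IGF2BP2, and 6 and 4 for IGF2BP3 (all genes: 22.5% and 21.9%, 30.9% and 33.2%, and 31.5% and 33.2%). ALDH1A2, which makes retinoic acid, fell by 1.38 and 1.05 in the latter pair. ALDH1A3, a related enzyme, fell by 0.70 in the IGF2BP1 knockout, and RARB, a retinoic acid receptor, rose by 0.63 in the IGF2BP2 knockout. Of 6 other homeobox genes beside the clusters, 0 were higher and 1 lower, 3 and 1, and 3 and 2. DLX1 and DLX2, neighbours of each other on the HOXD chromosome, fell by 1.31 and 1.07 in the IGF2BP3 knockout, and DLX1 by 0.76 in the IGF2BP2 knockout.

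Markers of the cells were checked beside these results. In total RNA of control, the kidney progenitor and HEK293 markers VIM (698.6 to 740.8 CPM), NEFM (191.5 to 217.0), SALL1 (44.2 to 58.1) and SIX2 (33.6 to 43.7) were present, PAX2 stood at 2.66 to 3.70 CPM, and PAX8 was at or near 0. Of 15 tested, in the cytoplasm 4 were higher and 7 lower when IGF2BP1 was knocked out, 6 and 6 for IGF2BP2, and 6 and 8 for IGF2BP3 (all genes: 22.5% and 21.9%, 30.9% and 33.2%, and 31.5% and 33.2%). With IGF2BP3 knocked out, NEFM fell by 3.06 and EYA1 by 2.38, and OSR1 rose by 2.54 and GDNF by 1.57. The 13 markers of other cell types summed to 41.4 to 43.4 CPM in total control libraries, 27.2 and 35.5 CPM in the IGF2BP1 knockout, 49.3 and 50.1 CPM in the IGF2BP2 knockout, and 78.2 and 78.7 CPM in the IGF2BP3 knockout. Of 6 tested in cytoplasmic RNA, 1 was higher and 3 lower, 1 and 2, and 3 and 1. COL1A1 made up most of the sum in control, at 31.8 to 34.1 CPM. PTPRC, CD3E, INS, MYH7, PECAM1 and CDH5 stood at or near 0 in control, the highest being 0.0994 CPM.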

How the data were processed

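The authors deposited, for total, nuclear and cytoplasmic poly(A) RNA, a table of raw counts per gene and a table of FPKM. Per the submitters' processing notes the tools were STAR, featureCounts and DESeq2 1.44.0 with GRCh38. The counting strand is not given in the sources used here. The FPKM values deposited by the authors match counts divided by each gene's genomic span and not by its exons, so levels here are library-scaled counts (CPM, with TMM factors) per kb of merged GENCODE 29 exons. Counts were tested per kind of RNA with edgeR 4.0.16 (TMM, filterByExpr by group, quasi-likelihood test, genotype and batch terms, all libraries) in R 4.3.3, adjusted by Benjamini-Hochberg over all genes tested and called at 0.05. Nuclear and cytoplasmic libraries shared a fit for the ratio. The scripts were tested on simulated data.

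The members and gene lists were chosen with earlier results of these data known. Named HOX genes had a mean deposited FPKM of 1 or more in total RNA of any group, or a call in at least 1 of the 9 comparisons. Of each list, those with the largest changes among genes called in all 3 kinds of RNA were to be named, and other list members, and neighbours of HOXB beyond the nearest, were chosen after their values were seen. Some genes that enter the counts are not reported here by name. Batch labels pair knockout and control libraries and batch is the block of the fit. Deviations of same-batch libraries correlated between -0.113 and 0.0154. Alternatives were DESeq2 1.42.0, limma 3.58.1 on log2(FPKM + 1) and log2(FPKM + 0.1), RLE and upper-quartile scaling, no filter, at least 1 CPM in 2 libraries, no batch term, only the knockout's batches, exchanged control batches, no batch 5, and each library left out. Exchanged control batches and no batch 5 were added after seeing the data.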

Additional observations from a re-analysis of the deposited data

Results flagged for a closer look

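In groups of 4 libraries, 148 combinations of gene and group were checked for a single library far from the other 3, and 5 (3.38%) had one, where chance gives about 1 in 20 (5%). Levels are in CPM per kb. In cytoplasmic RNA these were HOXA3 in IGF2BP3 knockout replicate 4 (6.389, others 6.799 to 6.853) and HOXB3 in control replicate 3 (6.023, others 6.492 to 6.562). In nuclear RNA they were HOXA2 in control replicate 1 (1.73, others 2.251 to 2.32), HOXB9 in control replicate 1 (113.837, others 105.057 to 106.032) and HOXC5 in control replicate 1 (0.465, others 0.212 to 0.242).

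The effect of a knockout differed between nuclear and cytoplasmic RNA for 10 HOX genes in each of the IGF2BP2 and IGF2BP3 knockouts, by the interaction term of the edgeR fit. In the IGF2BP2 knockout the log2 differences were -1.48 for HOXA4, -1.05 for HOXB3, -0.97 for HOXA6, -0.96 for HOXD4, -0.94 for HOXD3, -0.90 for HOXD10, -0.87 for HOXC8, -0.73 for HOXD9, -0.62 for HOXA9 and -0.32 for HOXC4. In the IGF2BP3 knockout they were -1.24 for HOXD3, -1.09 for HOXA4, -0.94 for HOXC8, -0.81 for HOXD10, -0.76 for HOXD4, -0.71 for HOXB3, -0.66 for HOXD9, -0.48 for HOXA6, -0.47 for HOXD11 and -0.44 for HOXA9.

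The 2 cytoplasmic IGF2BP3 knockout libraries of batch 5 have no control in their batch. They set no log2 change and entered the cytoplasmic fit only through its estimate of the spread. Their mean was more than 1.5 times the control mean for HOXA13 (12.0 CPM per kb, control 7.17 to 8.51), HOXC12 (1.81, control 0.386 to 0.547), HOXD8 (3.86, control 2.36 to 2.53) and HOXD12 (0.636, control 0.145 to 0.405). It was lower than control by more than 1.5 times for HOXB8, HOXB5, HOXB9, HOXB2 and HOXC4, with log2 ratios of the means of -0.91, -0.90, -0.80, -0.68 and -0.66.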

How the results depend on the processing

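Depth limits HOXC5, HOXD1, HOXD12 and HOXC12, which had few counts, and 2 libraries of 1 clone per knockout limit the rest. Of 7132 values of 341 gene results under alternatives, 6305 kept direction and side of the threshold, 821 lost the call and 6 changed sign. Counts of HOX genes called moved by more than 1.5 times as follows. With only the knockout's batches the IGF2BP1 knockout had 9 in total RNA. DESeq2 gave 13 for the IGF2BP2 knockout in total RNA, 13 for IGF2BP3 against IGF2BP2 in nuclear RNA, 11 for the IGF2BP2 minus IGF2BP1 difference, and 6 and 4 for the ratios of the IGF2BP2 and IGF2BP3 knockouts. Limma gave 7 with either pseudocount for the IGF2BP1 knockout in nuclear RNA, and 14 with log2(FPKM + 1) for IGF2BP3 against IGF2BP2 in nuclear RNA. RLE scaling gave 1 for the ratio of the IGF2BP1 knockout. Upper-quartile scaling turned HOXB3 in the IGF2BP2 knockout to 0.013 and HOXA9 in the IGF2BP3 knockout to 0.044, both in cytoplasmic RNA. It moved the median of all genes by 0.10 and 0.13 in total and 0.15 and 0.17 in cytoplasmic RNA of these knockouts. The cause was not tested.

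Batch pairs the libraries and is the replicate block. Without the block the counts were 13 for the IGF2BP1 knockout in cytoplasmic RNA, 14 for IGF2BP3 against IGF2BP2 in nuclear RNA, and 6 and 4 for the ratios of the IGF2BP2 and IGF2BP3 knockouts. Without it HOXA6 turned to -0.14 in cytoplasmic RNA of the IGF2BP2 knockout, the IGF2BP2 minus IGF2BP1 differences of HOXA6 and HOXA9 to -0.32 and -0.17, and the IGF2BP3 minus IGF2BP1 difference of HOXA5 to -0.18. Exchanging the control batches, an alternative chosen after seeing the data, kept every count within 1.5 times.

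Leaving out 1 library gave 14 to 18, 10 to 23 and 10 to 22 calls in total RNA of the IGF2BP1, IGF2BP2 and IGF2BP3 knockouts, 8 to 16, 17 to 27 and 18 to 28 in nuclear RNA, and 14 to 22, 24 to 29 and 17 to 26 in cytoplasmic RNA. IGF2BP3 against IGF2BP2 gave 8 to 22 in total, 12 to 27 in nuclear and 19 to 26 in cytoplasmic RNA. The differences from the IGF2BP1 knockout gave 13 to 17 and 14 to 18, the control ratio 27 to 29, and its changes 0 to 3, 4 to 10 and 1 to 11.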
